A study of Rattus norvegicus with 32 samples.

Results

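Class II molecules of the rat major histocompatibility complex, called RT1, are the subject here. They were followed through every probe set with the gene symbol RT1-Bb, RT1-Ba, RT1-Da, RT1-Db1, RT1-DMb or Cd74. These 6 genes, of the 4737 named by a single symbol on the array, had 19 of its 8799 probe sets. RT1-Bb had 5 probe sets, Cd74 had 4, RT1-Ba and RT1-DMb had 3 each, and RT1-Da and RT1-Db1 had 2 each. Of the 19, 18 were bright enough to be tested. The exception was M15358cds_at of RT1-Bb, which stayed between 0.4 and 10.1 on the 30 single-sample arrays.

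RNA of normal mammary gland was measured on Affymetrix rat arrays, 1 for each sample. Each of 6 groups had 5 arrays. There were 5 inbred strains, labelled ACI, BUF/N, Cop, F344 and WF. The sixth group, F1, was the hybrid of Cop with F344. A further 2 arrays held a Cop pool and an F344 pool, and the labels do not give the number of animals pooled. The labels name no treatment and no engineered allele for any group. The title of the series concerns inherited susceptibility to mammary cancer, and Cop rats are known for resisting it when it is chemically induced. Neither age, sex, cycle stage, batch nor RT1 haplotype is labelled. Whether the 5 samples of a group are 5 rats is not labelled either, and p-values speak of the spread among samples only, which may be technical.

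Class II molecules are heterodimers of an alpha and a beta chain that present peptides to CD4+ T cells on B lymphocytes, macrophages and dendritic cells. In the rat, RT1-B is the counterpart of mouse I-A and human DQ, and RT1-D that of I-E and DR. The invariant chain Cd74 blocks the groove of new heterodimers and guides them to the endosome, where RT1-DM exchanges the last fragment of Cd74 for peptide. Inbred rat strains carry different RT1 haplotypes, and the part of a class II chain that lines the groove is where alleles differ most. A short-oligonucleotide probe set reads RNA through its match to 1 reference sequence. Its signal can therefore differ between strains in the amount of RNA, in the sequence under the probes, or in both, and these cannot be told apart from the signals alone. In whole tissue, fewer cells of a type and less RNA per cell cannot be told apart either.

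All 5 RT1 members lie on chromosome 20 and Cd74 on chromosome 18 in RefSeq's GRCr8 annotation. There RT1-Db1, RT1-Ba and RT1-Bb are consecutive neighbours, RT1-Da stands next to RT1-Db2, and RT1-DMb stands between Psmb9 and RT1-DMa. The promoters are shown because class II genes are classically switched on together through an X box and a Y box bound by the RFX and NF-Y complexes with the coactivator CIITA. RefSeq promoter windows from 250 bases before to 50 bases after the start were at hand for 5 of the 6 members, RT1-DMb being the other. The stretches below are from the reference genome and not from these strains. Capitals mark matches to the Y box letters CTGATTGG and to the X box, searched on both strands.
RT1-Bb, chr20:4604155-4604242, minus strand: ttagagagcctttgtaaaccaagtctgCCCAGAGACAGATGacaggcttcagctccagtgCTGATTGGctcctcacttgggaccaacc
RT1-Ba, chr20:4576951-4577038, plus strand: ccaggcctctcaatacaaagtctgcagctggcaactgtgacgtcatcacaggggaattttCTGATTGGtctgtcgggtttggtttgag
RT1-Da, chr20:4515303-4515390, plus strand: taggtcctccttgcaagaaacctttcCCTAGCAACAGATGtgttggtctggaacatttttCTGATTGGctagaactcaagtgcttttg
RT1-Db1, chr20:4560218-4560305, minus strand: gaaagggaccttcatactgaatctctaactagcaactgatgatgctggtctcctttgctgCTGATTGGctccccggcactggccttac

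The Y box letters occurred in the promoters of 4 of the 5 members, all but Cd74, and in 3.5% of the 33469 RefSeq rat promoters of the same length. The X box pattern occurred in RT1-Bb and RT1-Da and in 0.0717% of all promoters. Only exact matches were counted, so a promoter without a match may still hold an X box with other letters. The RT1-Db1 stretch, for example, holds actagcaactgatg, which misses the pattern in its first letter. In RT1-Bb the X box began 97 bases and the Y box 64 bases before the start, with 19 bases between them. In RT1-Da they began 86 and 52 bases before the start, with 20 bases between them. The Y box began 46 bases before the start of RT1-Ba and 83 bases before that of RT1-Db1. The Y box core ATTGG, which lies within the Y box, was in all 5 windows and in 37.5% of all promoters. These matches are a description of the reference letters.

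Values are the deposited signals in arbitrary units. Differences are in log2 signal after low values were raised to a floor of 18.3, the 25th percentile over the 30 arrays. They were tested with limma over the 5039 probe sets that exceeded the overall median of 78.4 on at least 5 of the 30 arrays. A difference is called where the Benjamini-Hochberg adjusted p was below 0.05. Probe sets with _at were designed as unique, _s_at and _g_at share probes or bases with related transcripts, and _i_at hold few unique probes. The level of a probe set is not compared with that of another.

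Some arrays stood apart. F1 2 and F1 3 correlated with F1 arrays other than each other at r down to 0.846, while the correlation between the pair was 0.959. The highest median signals were those of ACI 2 and ACI 5, 102.1 and 101.8, against 65.8 to 86.8 on the others. Among the 18 tested members F1 2 was the highest of the 30 arrays on 7, and ACI 2 the lowest on 9. Of the genes listed for lymph node stroma 3 were on the array, Cxcl13, Madcam1 and Glycam1. Their summed signal was 5260 on F1 2 and 6210 on F1 3, against 485.9 to 2688 on the 28 others. Glycam1 gave most of it in F1, averaging 2695 ± 2177 (SD, n = 5) beside 450.8 for Cxcl13 and 148.2 for Madcam1. What cells these signals came from was not tested. For the members, calls that ended or started without these 4 arrays are given.

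The beta chain of RT1-B gave the sharpest strain pattern, and its probe sets opposed each other. X56596_at was 15.4-fold to 24.3-fold lower in BUF/N and in WF than in Cop, F344, F1 and ACI. U65217_i_at was at the floor on all arrays of those 4 groups and bright in BUF/N and WF. M36151cds_i_at was bright in BUF/N alone, and M36151cds_s_at was bright in all 6 groups.

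X56596_at gave signals of 844.9, 1006.9, 858.5, 963.4 and 1118.2 in Cop, of 1221, 1104.7, 1088.1, 1302.8 and 1123 in F344, and of 1275.9, 1275, 862.1, 1444.1 and 866.4 in F1. In ACI it gave 911.9, 730.4, 1305.6, 709.9 and 1189.9. In BUF/N it gave 59.8, 49.4, 71.4, 77.2 and 52.5, and in WF 84.6, 36.5, 45.6, 34.5 and 52.2. The highest of the BUF/N and WF arrays lay far below the lowest of the 20 others, and BUF/N and WF overlapped each other. In log2 signal BUF/N was below F344 by 4.25 ± 0.21 (SE, n = 5 and 5), and WF was below F344 by 4.60 ± 0.21. X56596_at passed the filter through Cop, F344, F1 and ACI, with 0 BUF/N arrays and 1 WF array above the overall median. No p is therefore given for its differences between those groups and BUF/N or WF. BUF/N and WF were not called apart (limma adjusted p = 0.583). Cop, F344, F1 and ACI were not called apart from their neighbours in the order F344, F1, Cop, ACI (adjusted p = 0.437 to 0.97).

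U65217_i_at gave 211.3, 394.6, 404.5, 540.2 and 558.5 in BUF/N and 429.3, 672.7, 252.1, 1000.4 and 967.1 in WF. Each of the 20 other arrays gave between 0.2 and 13.8, below the floor. Relative to a group at the floor, BUF/N was at least 21.8-fold higher and WF at least 32.1-fold higher. BUF/N and WF overlapped and were not called apart (adjusted p = 0.444). X56596_at and U65217_i_at split the 6 groups at the same place and in opposite directions.

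M36151cds_i_at gave 2329.6, 1078.3, 1174, 2474.7 and 1710.3 in BUF/N. The other 25 arrays, WF included, gave 0.8 to 3. BUF/N was at least 90.5-fold higher than each other group. BUF/N and WF, on the same side of the gap for X56596_at and U65217_i_at, were on opposite sides here. M36151cds_i_at passed the filter only through BUF/N and U65217_i_at only through BUF/N and WF, so that they had to differ once tested, and no p is given for those differences.

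M36151cds_s_at, named for the same reference sequence but with shared probes, had no such gap. It gave 1272.1, 1191.8, 1375.1, 1379.1 and 1597.8 in BUF/N, 1154.3, 632.5, 742.8, 1239.6 and 1291.4 in WF, and 1072.8, 1025.4, 614.3, 1445.9 and 970.6 in F1. It gave 756.6, 1020.8, 619.1, 747.9 and 1044.1 in Cop, 682.9, 783.3, 758.3, 929.9 and 681.2 in F344, and 668.5, 402.6, 1169, 594.6 and 447.6 in ACI. BUF/N lay wholly above Cop, F344 and ACI and overlapped F1 and WF. It was higher than ACI by 1.16 ± 0.24 in log2 signal (adjusted p = 0.00133), than F344 by 0.83 ± 0.24 (0.014) and than Cop by 0.72 ± 0.24 (0.0277). The difference from Cop lost its call without any 1 of Cop 1, Cop 3, Cop 4, BUF/N 3 or BUF/N 5 (highest adjusted p = 0.0733), and with no filter (0.0533). F1 was higher than ACI by 0.70 ± 0.24 (0.0277), and that call was lost without the 4 arrays that stood apart (0.57, adjusted p = 0.166). With those left out, the calls of BUF/N against Cop, F344 and ACI were kept.

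In the pools the RT1-Bb sets followed the samples of Cop and F344. X56596_at gave 1067.6 in the Cop pool and 1166.7 in the F344 pool, and U65217_i_at and M36151cds_i_at gave 1.2 to 3.4 in both.

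**Figure D1:**
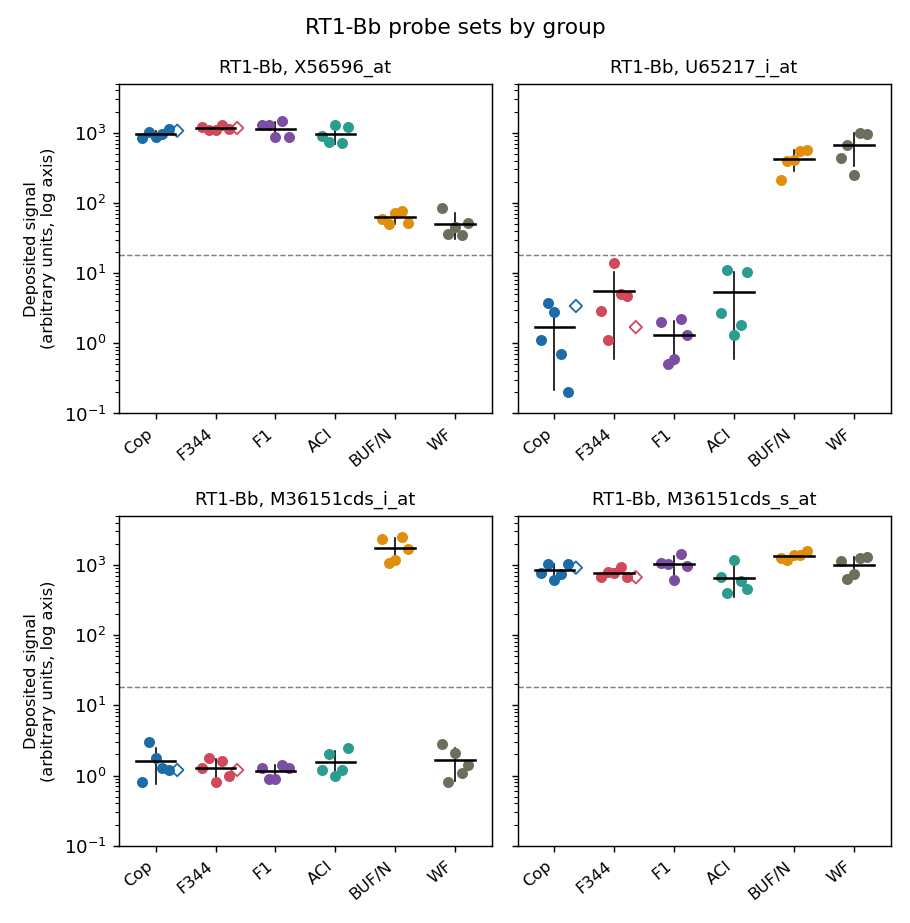
Deposited signal (arbitrary units, log axis) of the 4 tested RT1-Bb probe sets in the 6 groups. Filled points are single arrays, open diamonds the Cop and F344 pools, horizontal lines the mean, vertical lines the SD (n = 5, cut off at the lower edge where it reaches below the axis), and the dashed line the floor of 18.3. X56596_at was low and U65217_i_at high in BUF/N and WF, M36151cds_i_at was high in BUF/N alone, and M36151cds_s_at overlapped between most groups.

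The alpha chain of RT1-B showed other orders of the strains, which also depended on the probe set. K02815_s_at was highest in F344 and lowest in BUF/N. M22366_at ran the other way between F344 and BUF/N or ACI, at a dimmer signal. X07551cds_s_at did not pass the test among the 6 groups (adjusted p = 0.177).

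K02815_s_at gave 1639.1, 2432.3, 1407.8, 1848.6 and 1566.9 in F344, 1311.9, 3360.4, 1635.6, 1115.3 and 942.5 in F1, and 889.9, 1143.5, 1127.7, 1692.1 and 1411.5 in WF. It gave 747.4, 1000.8, 688.8, 610.2 and 987.6 in Cop, 483.7, 748, 639.8, 680.5 and 921.1 in ACI, and 343.4, 431.9, 485.6, 471.1 and 507.1 in BUF/N. F344 lay wholly above Cop, ACI and BUF/N, and the BUF/N arrays lay below all Cop, F344, F1 and WF arrays. F344 was 3.94-fold higher than BUF/N (log2 1.98 ± 0.24, limma adjusted p = 1.25e-06), 2.57-fold higher than ACI (1.36 ± 0.24, adjusted p = 0.00033) and 2.21-fold higher than Cop (1.14 ± 0.24, adjusted p = 0.0045). WF was 2.76-fold higher than BUF/N (1.46 ± 0.24, adjusted p = 0.000238). Neighbours in the order F344, F1, WF, Cop, ACI, BUF/N were not called apart (adjusted p = 0.0904 to 0.619).

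F1 2 gave the highest K02815_s_at signal of all arrays. F1 was higher than Cop with all arrays (log2 0.92 ± 0.24, adjusted p = 0.00603) and was not called so without the 4 arrays (0.49, adjusted p = 0.0855). Without them F344 was called higher than F1 (0.65, adjusted p = 0.026), which with all arrays it was not (0.22, adjusted p = 0.515). F1 against WF turned from 0.29 to -0.14, called in neither fit, so that the place of F1 above WF rested on F1 2 and F1 3. WF was then also called higher than Cop (0.63, adjusted p = 0.0132) and lower than F344 (0.51, adjusted p = 0.0426), which with all arrays it was not (0.0904 and 0.174). The pools gave 782.5 for Cop and 1751.2 for F344, each inside the range of its strain's samples.

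M22366_at gave 80.5, 78.5, 67.6, 97.4 and 75.1 in F344, 145.8, 154, 182.5, 139.9 and 139 in BUF/N, and 90.1, 185, 149.7, 104.4 and 179.7 in ACI. F344 lay wholly below BUF/N and overlapped ACI. F344 was lower than BUF/N by 0.93 ± 0.23 in log2 signal (adjusted p = 0.0042) and than ACI by 0.78 ± 0.23 (adjusted p = 0.0237), although K02815_s_at was higher in F344 in both comparisons. The ACI difference lost its call under quantile normalization, without the 4 arrays (0.50, adjusted p = 0.174) and without any 1 of F344 3, F344 5, ACI 2 or ACI 5 (highest adjusted p = 0.0833). Cop, F1 and WF gave 68.1 to 207.2 and were called apart from no group. F344 was also called lower than WF once the 4 arrays were left out (0.64, adjusted p = 0.0209). The pools gave 85.5 for Cop and 90.1 for F344, the opposite order to the sample means of 108.6 and 79.82.

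X07551cds_s_at had group means from 674.6 ± 406.6 in ACI to 1098 ± 552.7 in F1 (SD, n = 5). ACI 2 and ACI 5, at 271.5 and 316.8, were the lowest of the 30 arrays, followed by F1 3 at 443.9. Without the 4 arrays F1 was called higher than Cop (log2 0.71, adjusted p = 0.0299), against 0.26 with all arrays (adjusted p = 0.597).

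The alpha chain of RT1-D varied less. M15562_at was highest in WF and lowest in ACI, and M15562_g_at, of the same reference sequence, was not called among the 6 groups (adjusted p = 0.329). M15562_at gave 1214.9, 1070.2, 1184.7, 1672.7 and 1528.9 in WF, 686.3, 431, 677.1, 625.1 and 739.5 in ACI, and 1013.4, 2351.7, 1086.1, 790.8 and 600.3 in F1. Cop gave 764.9 to 1084.5, F344 825.7 to 1180.3 and BUF/N 653 to 1030.4. WF lay wholly above ACI and BUF/N, and the 5 F1 arrays spread over most of the range of the other groups.

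WF was 2.12-fold higher than ACI for M15562_at (log2 1.08 ± 0.23, limma adjusted p = 0.00316). F1 was called higher than ACI with all arrays (0.75 ± 0.23, adjusted p = 0.0174) and not without the 4 arrays (0.24, adjusted p = 0.503). Without them WF was also called higher than Cop, F344, F1 and BUF/N, by 0.53, 0.50, 0.75 and 0.68 (adjusted p = 0.00931 to 0.0273), where with all arrays it was not (adjusted p = 0.14 to 0.34). M15562_g_at ran from 1724.9 in WF 2 to 7126.7 in F1 2, and its 29 other arrays reached 3994.6. It was called lower in ACI than in BUF/N without the 4 arrays (0.64, adjusted p = 0.0221), against 0.51 with all arrays (0.15).

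**Figure D2:**
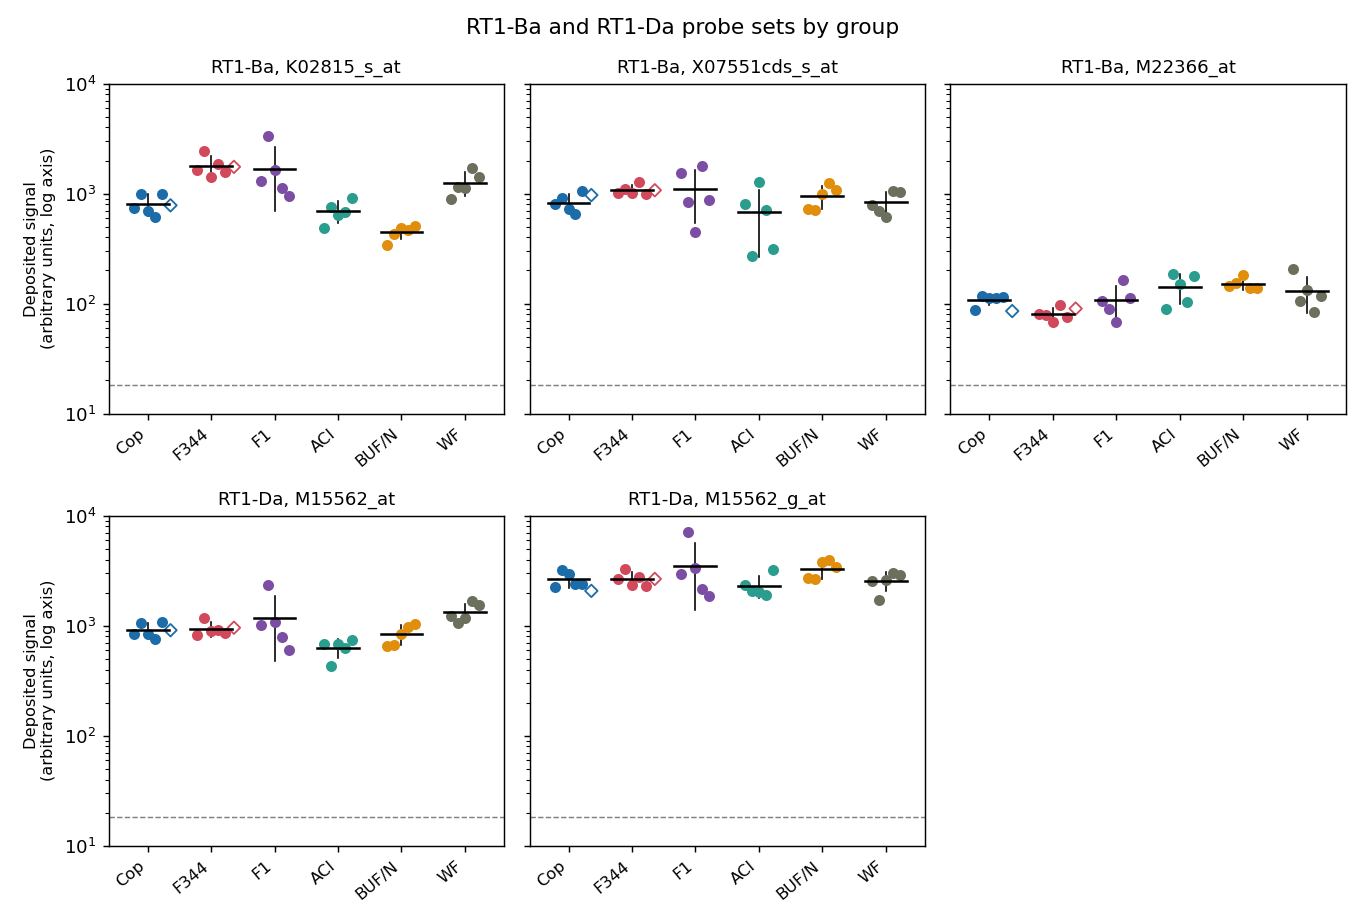
Deposited signal (arbitrary units, log axis) of the 3 RT1-Ba and 2 RT1-Da probe sets in the 6 groups. Filled points are single arrays, open diamonds the pools, horizontal lines the mean, vertical lines the SD (n = 5) and dashed lines the floor of 18.3. For K02815_s_at the 5 F344 arrays, 1407.8 to 2432.3, lie above all Cop, ACI and BUF/N arrays, and F1 2 is the highest point of K02815_s_at and of both RT1-Da sets.

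One probe set for the beta chain of RT1-D separated F344 and F1 from the other 4 groups, and the other did so less fully. X53054_at was 3-fold higher in F344 than in Cop and 7.64-fold higher than in BUF/N. In F1 it was 2.37-fold higher than in Cop and 6.04-fold higher than in BUF/N. RT1-Db1 has the near copy RT1-Db2, and both of its probe sets could read RNA of that copy.

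X53054_at gave 464.4, 487.8, 558.6, 601.8 and 464.5 in F344, 465.1, 432.5, 335.3, 471 and 344.2 in F1, and 147.6, 159.7, 140.9, 195.9 and 224.9 in Cop. It gave 116.7, 86.5, 236.3, 131.3 and 166.9 in ACI, 64.2, 140.1, 56.7, 200.2 and 184.3 in WF, and 53.3, 57.4, 62.5, 77.9 and 91.1 in BUF/N. All 10 arrays of F344 and F1 lay above all 20 others, and F344 and F1 overlapped each other. BUF/N lay below Cop and overlapped ACI and WF.

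F344 exceeded Cop by 1.58 ± 0.28 in log2 signal (limma adjusted p = 0.000492), ACI by 1.88 ± 0.28 (2.78e-05), WF by 2.18 ± 0.28 (3.65e-06) and BUF/N by 2.93 ± 0.28 (9.9e-09). F1 exceeded Cop by 1.24 ± 0.28 (adjusted p = 0.00171) and BUF/N by 2.60 ± 0.28 (2.46e-07). Cop exceeded BUF/N by 1.35 ± 0.28 (0.000782) and ACI exceeded BUF/N by 1.05 ± 0.28 (0.0109). F344 and F1 were not called apart (adjusted p = 0.372). All 10 calls of X53054_at were kept under each of the alternatives and with each array left out. The pools gave 173.2 for Cop and 462.6 for F344.

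X53054_g_at gave 1737.4, 1675.9, 1551.1, 2093.4 and 1438.6 in F344, 1937.7, 1712.1, 942.3, 1666.6 and 1146.4 in F1, and 760.4, 1088, 985.6, 1081.8 and 1144.1 in Cop. It gave 676, 973.3, 588.8, 1337.7 and 1205.3 in BUF/N, 829.1, 300, 1008, 651.4 and 637.1 in ACI, and 329.1, 547.8, 576.4, 790.4 and 903.6 in WF. F344 lay wholly above Cop, BUF/N, ACI and WF. F344 was higher than WF by 2.84-fold (adjusted p = 0.000505). In log2 signal it was higher than ACI by 1.41 ± 0.28 (0.00103) and than BUF/N by 0.89 ± 0.28 (0.0221). The BUF/N call was lost without F344 4, BUF/N 1 or BUF/N 3 (highest adjusted p = 0.0796). F1 was higher than WF by 1.27 ± 0.28 (0.00255) and than ACI by 1.17 ± 0.28 (0.00251), the last lost without the 4 arrays (0.92, adjusted p = 0.0505). Cop against F344 was not called (-0.75, adjusted p = 0.164), nor was F1 against Cop (0.174) or BUF/N (0.1), and F1 3 and F1 5 lay among the Cop and BUF/N arrays. In a fit of only the arrays compared, Cop against F344 was called (0.00611). With the pools as sixth samples (0.108) and without the 4 arrays (0.0593) it was not. Cop was called higher than WF without the 4 arrays (0.75, adjusted p = 0.0237).

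**Figure D3:**
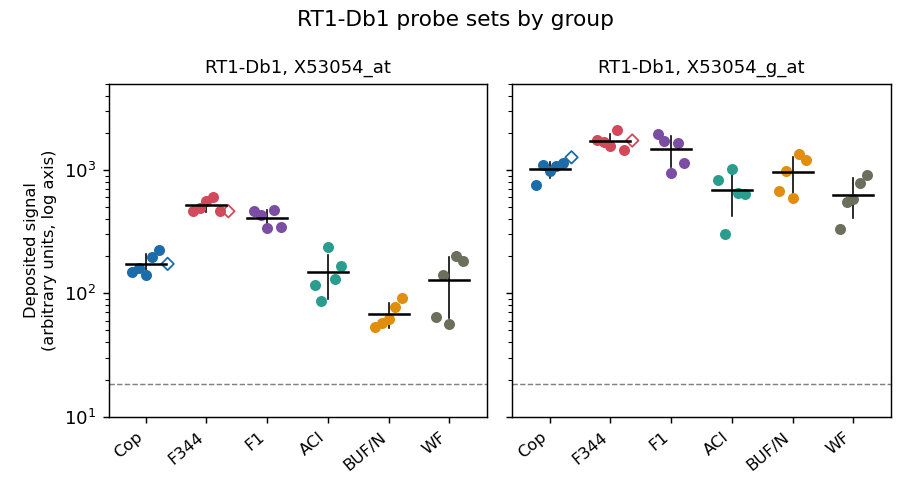
Deposited signal (arbitrary units, log axis) of the 2 RT1-Db1 probe sets in the 6 groups, with single arrays as filled points, pools as open diamonds, the mean as a horizontal line, the SD as a vertical line (n = 5) and the floor of 18.3 dashed. For X53054_at the F344 and F1 arrays lie between 335.3 and 601.8 and all other arrays between 53.3 and 236.3.

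RT1-DMb, the beta chain of the peptide exchanger, was lowest in ACI on both of its sets that passed the test. rc_AI171966_at gave 345.8, 262.1, 397.9, 224.3 and 437.7 in ACI, 312.4, 517, 333.3, 462.5 and 489.6 in Cop, and 469.8, 411.4, 543.3, 644.4 and 595.1 in WF. It gave 681.2, 766.2, 668.2, 675.4 and 609.4 in F344, 578.4, 503.2, 985.5, 740.6 and 772.8 in BUF/N, and 697.5, 1430.5, 888.4, 864.8 and 508 in F1. ACI lay wholly below F344, BUF/N and F1 and overlapped Cop and WF. Cop lay wholly below F344 and overlapped BUF/N and F1.

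ACI was lower than F1 by 1.36 ± 0.22 in log2 signal (limma adjusted p = 9.02e-05), than BUF/N by 1.11 ± 0.22 (0.00103) and than F344 by 1.07 ± 0.22 (0.00183). Cop was 2-fold lower than F1 (0.00162) and lower than BUF/N by 0.75 ± 0.22 (0.0148), the last lost without Cop 1 or BUF/N 3 (highest adjusted p = 0.0586). Cop against F344 gave -0.71 and was not called (adjusted p = 0.0768). It was called without the 4 arrays (0.026), with the pools as sixth samples (0.0241) and in a fit of only the arrays compared (0.0178). F1 against WF, at 0.65 ± 0.22 (0.0444), lost its call under 5 of 12 alternatives, 1 of them leaving out the 4 arrays (0.36, adjusted p = 0.33), and with 11 of the 30 arrays left out singly. ACI was also called lower than WF without those (0.75, adjusted p = 0.0439).

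U31599_g_at gave 118.6, 82.3, 176.3, 53.6 and 30.3 in ACI, 113.5, 179.4, 81.8, 98.3 and 196.3 in Cop, and 162.6, 180.8, 168.4, 250.9 and 217.7 in WF. It gave 179.3, 168.9, 259, 270.5 and 257.7 in BUF/N, 152.1, 328.8, 224.3, 192.5 and 154.7 in F1, and 250.8, 292.7, 234, 266.9 and 238.1 in F344. F344 lay wholly above ACI and Cop, and ACI overlapped each of the other groups at its top, F344 excepted. F344 was 3.3-fold higher than ACI (1.72 ± 0.32, adjusted p = 0.000431) and BUF/N 2.87-fold higher than ACI (1.52 ± 0.32, adjusted p = 0.00133). F1 and WF were also higher than ACI (adjusted p = 0.00183 and 0.00849), and both calls were lost without the 4 arrays (0.186 and 0.0663). Cop was then called lower than F344 (1.02, adjusted p = 0.014) and BUF/N (0.82, adjusted p = 0.0144). With all arrays neither was called (0.0731 and 0.0578). Cop against F344 was also called with the pools as sixth samples (0.0283) and in a fit of only the arrays compared (0.0209). U31599_at, at group means of 65.62 to 126.5, was not called among the groups (adjusted p = 0.128).

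On the 4 probe sets of the invariant chain Cd74 the group means lay from -0.56 to 0.34 around the mean of the 6 groups in log2 signal. X14254cds_at and X13044_g_at were not called among the 6 groups (adjusted p = 0.829 and 0.397). X13044_g_at had means of 2580 ± 443 in Cop, 2911 ± 472.7 in F344, 3121 ± 996 in F1, 2457 ± 980.6 in ACI, 3052 ± 724.3 in BUF/N and 2369 ± 509.1 in WF (SD, n = 5). X14254cds_at had means of 726.3 in WF to 839.1 in F344. All groups overlapped on both sets.

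X14254cds_g_at gave 1923.6, 646.5, 2224.4, 1606.8 and 819.9 in ACI, 2098.1, 2269.4, 1990.4, 2558 and 1987.3 in F344, and 2371.8, 2477.9, 2124.2, 2110.8 and 1903.9 in BUF/N. ACI 2 and ACI 5 were the lowest of the 30 arrays, and the ratio of the 3' to the 5' actin control was 1.78 and 1.81 on them and 1.19 to 1.34 on the other 3 ACI arrays. It reached 1.98 on F1 1, whose X14254cds_g_at signal was 2190. The part of that ratio in the result was not tested. ACI was called lower than BUF/N, F344 and F1 by 0.76, 0.74 and 0.68 in log2 signal (SE 0.23, adjusted p = 0.0246 to 0.0315). Without the 4 arrays the differences were 0.20, 0.19 and 0.23 and none was called (adjusted p = 0.422 to 0.513).

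X13044_at gave 3307, 4825, 3001, 4132.2 and 2106 in F1, 2476.1, 1425.8, 3612.9, 2011.4 and 2080.5 in ACI, and 2197.7, 1926.9, 2066.9, 2228.7 and 2910.3 in WF. ACI 3 lay above 3 of the 5 F1 arrays, and F1 5 alone lay within the range of WF. F1 was called higher than ACI by 0.59 ± 0.20 (adjusted p = 0.0252) and than WF by 0.58 ± 0.20 (0.0472). Without the 4 arrays these were 0.23 and 0.45 and neither was called (0.569 and 0.144). The F1 against WF call was also lost with 22 of the 30 arrays left out singly.

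**Figure D4:**
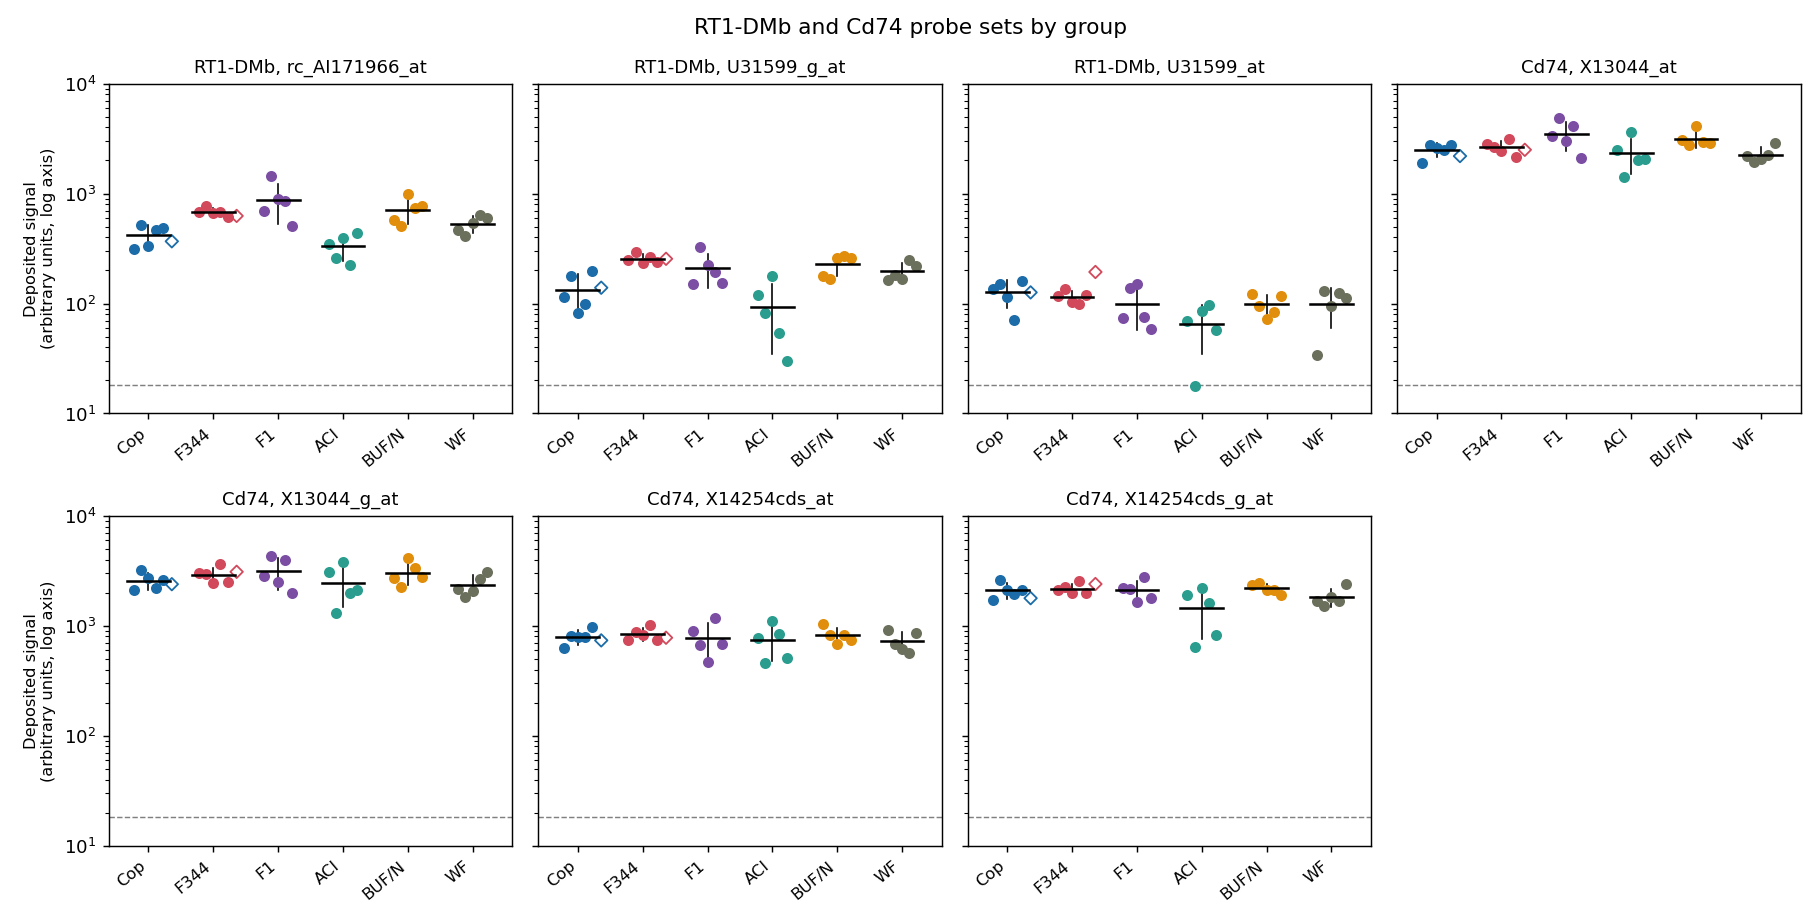
Deposited signal (arbitrary units, log axis) of the 3 RT1-DMb and 4 Cd74 probe sets in the 6 groups. Filled points are single arrays, open diamonds the pools, horizontal lines the mean, vertical lines the SD (n = 5) and dashed lines the floor of 18.3. The Cd74 sets overlap between all groups, with ACI 2 and ACI 5 lowest on X14254cds_g_at at 646.5 and 819.9, and ACI is lowest on rc_AI171966_at and U31599_g_at.

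Counted over the members, 13 of the 18 tested passed the F test among the 6 groups, against 51.8% of all tested probe sets. This count includes the sets that passed the filter only through some groups. Of the 15 members above the overall median on an array of every group, 10 passed. These 15 leave out M36151cds_i_at, U65217_i_at and X56596_at, which had no BUF/N array above that median. The 5 that did not were X07551cds_s_at, M15562_g_at, U31599_at, X13044_g_at and X14254cds_at. Over the 15 pairs of groups 68 of 270 tests of members were called, or 25.2%, against 15.8% over all tested probe sets. For the 15 members it was 47 of 225, or 20.9%. Without the 4 arrays there were 71 calls, 55 of them among the 68. The pairs share arrays and are not independent.

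Between the parents of the hybrid, Cop and F344, 2 members were called against 3.45% of all probe sets. They were K02815_s_at and X53054_at, and both were lower in Cop, as were 1.77% of all. Cop and ACI differed in 0 members by limma, against 7.6% of all, and 5 members had an unadjusted p below 0.05. F344 and F1 also differed in 0 members, against 31.7%, and none had an unadjusted p below 0.05. Without the 4 arrays K02815_s_at and M22366_at were called between F344 and F1, in opposite directions (0.65 and -0.65, adjusted p = 0.026 and 0.0366).

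F1 against Cop gave 3 members against a background of 26.3%, namely K02815_s_at, rc_AI171966_at and X53054_at. BUF/N against WF gave 2, K02815_s_at and M36151cds_i_at, against 2.22%. Cop against WF gave 2, X56596_at and U65217_i_at, against 12.8%, and F344 against WF gave these and both RT1-Db1 sets, against 11.3%. Both of the Cop against WF calls, and 2 of the 4 of F344, came from the sets left out of the 15 members, as did that of M36151cds_i_at. Counts with BUF/N were 7 for Cop against 23.3%, 8 for F344 against 23.8%, 5 for F1 against 17.3% and 8 for ACI against 13.7%. Over the 15 members these were 4, 5, 2 and 5.

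With ACI the counts were 7 for F344 against 12.3% and 5 for WF against 7.18%, 3 of the latter among the 15 members. F1 against ACI gave 9 members against 29.2%, all 9 higher in F1, as were 12.4% of all probe sets. Without the 4 arrays that count was 3, K02815_s_at, X53054_at and rc_AI171966_at. F1 against WF gave 6 against 15.2%, of which 4 were among the 15 members. The median log2 difference of the members for F1 against ACI was 0.69 with all arrays and 0.23 without the 4, where that of all tested probe sets with all arrays was -0.08. For F344 against ACI the members' median was 0.45 and 0.28, beside -0.07. For ACI against BUF/N it was -0.52 and -0.23, beside 0.02.

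**Figure D5:**
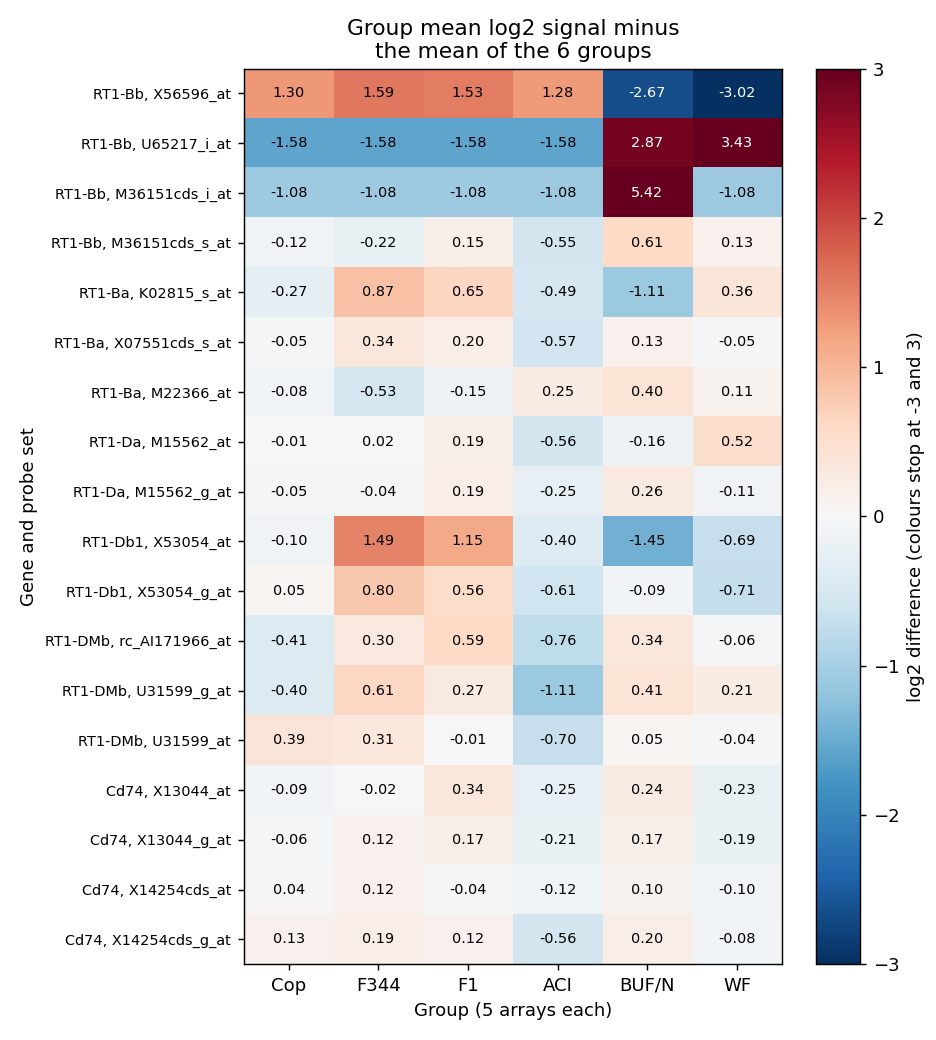
Mean log2 signal of each group (5 arrays) minus the mean of the 6 groups for the 18 tested member probe sets, as numbers and as colours that stop at -3 and 3. The RT1-Bb rows X56596_at and U65217_i_at run in opposite directions in BUF/N and WF, X53054_at of RT1-Db1 is highest in F344 (1.49) and F1 (1.15), and the Cd74 rows stay between -0.56 and 0.34.

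The hybrid was set against the mean of its parents, where 1 member was called against 35.2% of all probe sets. This was rc_AI171966_at of RT1-DMb, at 159% of the parental mean signal (log2 0.64 ± 0.19, limma adjusted p = 0.0106). The call was lost without F1 2 (highest adjusted p with 1 array left out 0.0774) and without the 4 arrays (0.35, adjusted p = 0.207). Without them U31599_at, of the same gene, was called lower in F1 than in its parents (-0.79, adjusted p = 0.0477), against -0.36 with all arrays (0.404). For the sets that differed between the parents F1 stood at 119% of the parental mean for X53054_at and 129% for K02815_s_at, with no call (adjusted p = 0.146 and 0.199). X53054_at was called in a fit of only the arrays compared (0.0209), but not with the pools as sixth samples (0.105) or without the 4 arrays (0.198). X13044_at of Cd74, at 136%, was not called with all arrays (0.072) but was with the pools as sixth samples (0.0412). For K02815_s_at the log2 difference of 0.35 turned to -0.08 without the 4 arrays. X56596_at stood at 108%. Over the members above the floor the ratio ran from 81.9% for U31599_at to 159%.

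The probe sets of a gene were compared on each array by the difference in their log2 signals, so that a factor shared by both cancels. This difference varied among the groups for 12 of the 20 pairs of member sets, against 44.1% of the 1483 same-gene pairs on the array. Pairs with the sets that passed the filter only through some groups had to differ, and of the 14 pairs among the 15 members 6 varied, or 42.9%, near that background. The 6 RT1-Bb pairs, the 3 RT1-Ba pairs, the RT1-Da pair, the RT1-Db1 pair and 1 of 6 Cd74 pairs passed, and 0 of 3 RT1-DMb pairs did (limma adjusted p = 0.059 to 0.195). In 4 of the 20 pairs both sets were called in opposite directions in at least 1 pair of groups, against 3.91% of the 1483. These were X56596_at with each of the 3 other RT1-Bb sets, and K02815_s_at with M22366_at. The last was the 1 such pair of the 14.

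Sets named for the same reference sequence differed too. For X53054 the F344 excess over BUF/N was 2.93 on the _at set and 0.89 on the _g_at set, a difference of 2.05 ± 0.22 in log2 signal (adjusted p = 1.31e-07). ACI against BUF/N was 1.05 on the first and -0.52 on the second, a difference of 1.57 ± 0.22 (1.76e-05). For M15562 BUF/N against WF was -0.68 on the _at set and 0.37 on the _g_at set, a difference of -1.05 ± 0.14 (1.03e-05).

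Other genes of the class II pathway on the array numbered 20, of which 15 were tested and 9 passed the F test, where 51.8% of all tested probe sets did. RT1-DMa, the partner of RT1-DMb, had the smallest adjusted p of the list (7.45e-05). Its mean signal was 540.5 ± 164 in F1, 497.2 ± 46.01 in BUF/N, 440.4 ± 62.2 in WF, 346.8 ± 68.91 in F344, 296.2 ± 45 in Cop and 281 ± 28.3 in ACI (SD, n = 5). Like rc_AI171966_at of its partner it was called lower in ACI than in F1 and BUF/N (log2 0.90 and 0.82, SE 0.17, adjusted p = 0.000278 and 0.00103) and lower in Cop than in F1 and BUF/N (0.84 and 0.76, adjusted p = 0.000533 and 0.00137). ACI was below WF by 0.64 for RT1-DMa (adjusted p = 0.0142) and by 0.70 for rc_AI171966_at (0.0512). RT1-DMa was not called between F344 and ACI.

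The lysosomal proteases Ctsb, Ctsd and Ctsl, which cut antigen and Cd74, passed (adjusted p = 0.000308, 0.00435 and 0.00709). Ctsb averaged 3618 in F1 and 2294 in ACI, Ctsd 1328 in F344 and 918.7 in WF, and Ctsl 2330 in F1 and 1543 in ACI. The promoter factors Nfyc, a subunit of NF-Y, and Creb1 passed as well (0.00581 and 0.0121). Rfx5, which binds the X box, averaged 154 in F344 to 222.4 in WF (0.0354), and RT1-DOa, which holds back RT1-DM, 301.1 in F1 to 477.7 in BUF/N (0.0208). Over the pathway list the median difference of F344 against ACI was 0.24, and of F1 against ACI 0.25, beside -0.07 and -0.08 over all tested probe sets.

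Interferon gamma is the classical inducer of class II genes. Of 14 genes of its response on the array 13 were tested and 10 passed, beside the same 51.8%, led by Psmb8 and Tap2 (adjusted p = 3.4e-05 and 3.54e-05), which lie in the same complex. Psmb8, an immunoproteasome subunit, averaged 981.5 in BUF/N and 923.9 in WF and 473.6 to 661.9 in the other groups. Tap2, a peptide transporter chain, averaged 249.2 in ACI and 233 in WF and 102.3 to 153.7 elsewhere. Ifngr1, B2m, Icam1 and Tap1 also passed (0.00325 to 0.0102). Ifng itself averaged 16.92 to 30.82 and was too dim to be tested.

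Marker genes of the cells that carry class II also varied among the groups. Of 9 macrophage genes on the array 7 were tested and 5 passed, beside the 51.8% of all, Cd14, Clec10a, Aif1, C1qb and Lyz2. The summed signal of the 9 was 6142 to 7400 in Cop, 6113 to 7562 in F344 and 6412 to 7828 in F1. It was 3837 to 6595 in ACI, 4615 to 6697 in BUF/N and 4440 to 5854 in WF. Bright genes weigh most in these sums. C1qb, Clec10a and Lyz2 averaged lower in ACI, BUF/N and WF than in Cop, F344 and F1, and other genes did not. Cd14 averaged 1368 in BUF/N beside 958.6 in Cop and 1110 in F344. C1qc and Fcgr2b averaged highest in BUF/N, at 638.5 and 176.1, and Fcgr2b lowest in F1, at 89.88. Aif1 averaged 215.3 in F1 beside 246.8 in WF. Csf1r and Itgam averaged 40.8 or less in every group. The lowest group median was that of ACI, 4117, followed by WF, 4883, and ACI 3, at 6595, lay above all WF arrays. RT1-DMb was lowest in ACI on both of its sets that passed the test, and rc_AI171966_at was second lowest in Cop. Between Cop and ACI 3 of the 7 macrophage genes were called higher in Cop, where 7.6% of all tested probe sets were called. Of the 18 members 0 were called, and a share of 7.6% would also be few of 18. For that pair 5 members had an unadjusted p below 0.05. The members' median log2 difference was 0.26, beside -0.06 over all tested probe sets. The part of the macrophage genes in the class II differences was not tested.

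The 2 B lymphocyte genes on the array, Cd79b and Cd37, did not pass (adjusted p = 0.0526 and 0.238), with 1 at an unadjusted p below 0.05. Their summed signal was 588.6 to 863.7 in BUF/N and 184.6 to 803.2 over the other groups. Of 11 genes listed for T lymphocytes 9 were tested and Thy1 alone passed (0.00467). Thy1 averaged 1076 in BUF/N, 989.2 in WF and 443.3 to 800.3 in the other groups. What cells its signal came from was not tested. The summed signal of the 11, Thy1 included, was 2320 to 3050 in BUF/N and 1082 to 3302 over the other groups, with F1 2 the highest. Of 3 dendritic cell genes Cd1d1 alone was tested (0.0609). The 3 genes listed for lymph node stroma passed (0.012 to 0.0418), where 51.8% of all tested probe sets did. Cxcl13 kept its call without the 4 arrays, and Madcam1 and Glycam1 lost theirs (0.123 and 0.268). Glycam1 also lost it with 11 of the 30 arrays left out singly.

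Marker genes of other tissue components differed among the groups as well, so that their RNA varied beside that of the class II genes. Whether the amount of each component differed was not tested. Of 9 luminal epithelial genes 8 passed the F test, led by Lcn2, Cldn3, Krt19, Krt8, Cldn7 and Muc1 (adjusted p = 1.59e-15 to 0.000517). Beside this count and those of the components that follow stands the 51.8% of all tested probe sets that passed. Lcn2 had another order of the groups than the rest of these. It averaged 1616 in Cop, 72.34 in F344 and 75.18 in ACI, while Cldn3, Krt19, Krt8, Cldn7 and Muc1 were lowest in Cop. All 6 milk protein genes passed, Csn3, Wap, Csn1s1, Csn2, Lalba and Csn1s2a (1.34e-06 to 0.0404), and Csn1s2a did not without the 4 arrays (0.0584). All 6 genes of basal and smooth muscle cells passed, Cnn1, Tagln, Myh11, Krt14, Krt5 and Acta2 (1.63e-06 to 0.014).

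Of 9 adipocyte genes 8 passed, led by Pparg, Cfd, Lpl, Plin1, Adrb3 and Car3 (1.69e-05 to 0.00152), and all 9 skeletal muscle genes did, led by Myh4, Myl1, Tnni2, Pvalb, Tnnt3 and Acta1 (0.00189 to 0.0119). Between Cop and BUF/N 7 luminal genes were called lower and 7 adipocyte genes higher in Cop, where 23.3% of all tested probe sets were called. All 9 skeletal muscle genes were called higher in F344 than in F1, where 31.7% of all tested probe sets were called. All 9 were also called higher in F344 than in WF, where 11.3% of all were called. The part of these components in the class II differences was not tested.

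The brightest probe set of each gene, by its mean over the 30 arrays, was compared with all tested sets of other genes by Pearson's r over the 30 arrays, which share their groups. Nearest to Cd74 (X13044_g_at) were Coro1a at 0.862, Cd37 at 0.790 and Ighvl1 at 0.763, and deviations from the group means gave 0.755 to 0.838 for these. Coro1a encodes a coronin of leukocytes, Cd37 a leukocyte tetraspanin and Ighvl1 an immunoglobulin segment. Nearest to RT1-Db1 (X53054_g_at) were Lyz2 at 0.786, Grn at 0.763 and Il6st at 0.758. Nearest to RT1-DMb (rc_AI171966_at) were Septin1 at 0.818, Use1 at 0.785 and Fam32a at 0.782.

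For RT1-Ba (K02815_s_at) the nearest was Paqr3 at 0.889, a value of 0.507 within groups, followed by Cxcl13 at 0.694 and Rnase4 at 0.692. For RT1-Da (M15562_g_at) they were Apoc1, Rpl35 and Rpl24 at 0.777 to 0.781, and for RT1-Bb (M36151cds_s_at) Rpl11 at 0.749, Rab11b at 0.745 and Asb1 at 0.720. Among the members themselves, X56596_at and U65217_i_at had r = -0.978 over the arrays and -0.168 within groups. As U65217_i_at was at the floor on 20 of the 30 arrays, the first value restates the split of the groups. Within groups U65217_i_at varied in BUF/N and WF only. M36151cds_s_at and X07551cds_s_at, which read the beta and the alpha chain of RT1-B, had 0.723 over the arrays and 0.865 within groups. K02815_s_at and M15562_at, of the alpha chains of RT1-B and RT1-D, had 0.623 and 0.815.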

How the data were processed

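Normal mammary gland of 6 groups was measured on 30 single-sample arrays and 2 pools. The authors deposited linear signal intensity values from Affymetrix Microarray Suite 5.0, per the labels, at 8799 probe sets, 59 of them controls. The mean after trimming the lowest and highest 2% was 250.0 on all arrays, so that each had been scaled to one target. Probe set names came from the array's annotation, updated by identifier for 6994 sets: 7018 had 1 symbol, 308 several and 1473 none. Probe sequences were not used here.

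Signals were set to a floor of 18.3 (the 25th percentile), log2 transformed, and 5039 sets were tested that exceeded the overall median on at least 5 of 30 arrays. Group means were fitted over all of them with limma 3.58.1 in R 4.3.3 (variance trend, 29.58 degrees of freedom), adjusting by Benjamini-Hochberg within each contrast at 0.05. Same-gene pairs were fitted as per-array differences without trend. The pools were left out. Every member was named. Of other lists the genes passing the F test were named, up to 6 per list by adjusted p, with the brightest set per gene, and others with their values for their role; these, Rfx5, RT1-DOa, Csf1r, Itgam, Ifng, Cd79b, Cd37 and Cd1d1, were chosen after their values were seen. Members, lists and motifs were chosen with earlier results of these data known. The fits were tested on simulated data. Alternatives were other floors, an offset of 50, other filters, quantile normalization, median centring, the replicate number as a block, no trend (with trend for pairs), only the arrays compared, the pools as sixth samples, leaving out ACI 2, ACI 5, F1 2 and F1 3, and leaving out each array. Precision is limited by 5 arrays per group.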

Additional observations from a re-analysis of the deposited data

Results flagged for a closer look

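Within groups of 5 arrays, 3 of 99 combinations of probe set and group held an array with a gap to the others beyond Dixon's 95% critical value on the log2 scale, where chance flags about 1 in 20. For M22366_at of RT1-Ba, Cop 1 gave 86.8 against 111.8 to 117.2 on the other Cop arrays. For X13044_at of Cd74, Cop 1 gave 1901.5 against 2494.5 to 2786.5. For U31599_at of RT1-DMb, WF 1 gave 34 against 95.1 to 130.1.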

How the results depend on the processing

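No called difference or count reversed under any alternative. Without ACI 2, ACI 5, F1 2 and F1 3, 47 of 288 member differences changed sign, 0 of them called in either fit. The F test count of 13 members ran from 11 to 14, the 68 calls over the pairs from 55 to 80, and the 12 same-gene pairs from 8, with a filter of 15 arrays under which M36151cds_i_at and U65217_i_at were not tested, to 16 with no filter. The 2 members called between Cop and F344 became 4 with the pools as sixth samples, 4 without ACI 2, ACI 5, F1 2 and F1 3, and 5 in a fit of only the arrays compared, and 2 to 3 with 1 array left out. The 1 member called between F1 and its parents became 2 with the pools as sixth samples and 2 in a fit of only the arrays compared, and 0 to 2 with 1 array left out, 0 without F1 2. The replicate numbers did not pair the samples: 16 of 75 same-numbered pairs of groups correlated above 0.1, and 5 of 30 arrays correlated best with their own number. With the replicate number as a block, 11 members passed the F test, 66 calls were made over the pairs, 2 between Cop and F344 and 1 for F1, and 12 same-gene pairs passed. The block ended the F tests of X13044_at and X14254cds_g_at and the F1 against WF calls of rc_AI171966_at and X13044_at. The cause was not tested for any of these changes. Median centring moved the median of all probe sets by up to 0.12 in contrasts with ACI. Signals of U65217_i_at and M36151cds_i_at below the floor give bounds only.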
